A study of Mus musculus with 12 samples.

Results

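The comparison was between NSC-34/shPGRN cells and NSC-34 vector control cells, taken from the 4 arrays titled shPGRN and the 4 titled Control, 8 of the 12 arrays in the series. Of these cells, transcripts of 11477 genes, bright and dim, were tested. NSC-34 is a mouse hybrid line of neuroblastoma cells and motor neurons of the embryonic spinal cord. NSC-34/shPGRN cells carry pRS plasmids with short hairpin RNAs against the coding region of mouse Grn and were selected with puromycin, and the remaining 4 arrays are of cells carrying human PGRN in pcDNA3 and selected with G418 (NSC-34/hPGRN). Those 4 arrays were left out of the contrast. They did enter the normalization, the filter on dim probes, the choice of the probe for a gene and the estimate of the spread. All flasks received 200000 cells in 10% serum, then 5% serum, then 1% serum for 24 h before lysis, and the RNA was measured on Illumina MouseWG-6 v2 BeadChips. Which empty vector and drug the arrayed control cells received is not given in the sources, so effects of the hairpin, the vector and the selection cannot be told apart. The 4 arrays of a line came from flasks subcultured from 1 stable line. The p-values therefore reflect only culture-to-culture variation within each line.

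Grn encodes progranulin (PGRN), a secreted glycoprotein that neurons and microglia take up and deliver to lysosomes, where it is cut into granulin peptides. Loss of 1 copy of the gene in people causes frontotemporal dementia, and loss of both copies causes a lysosomal storage disease, neuronal ceroid lipofuscinosis. Cultured neurons depend on PGRN for survival and neurite growth.

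Grn was lower on every NSC-34/shPGRN array. Its deposited intensity was 646, 635, 665 and 502 on the NSC-34/shPGRN arrays and 896, 899, 811 and 942 on the control arrays. The groups did not overlap, and replicate 4 of NSC-34/shPGRN cells lay below the other 3. The knockdown was 1.41-fold (log2 fold change -0.49 by limma, SE 0.11, with adjusted p = 0.00251), and the exact two-sided permutation test of the intensities gave p = 0.0286, the smallest that 4 against 4 arrays allow. Without replicate 4 the log2 fold change was -0.41 (limma, adjusted p = 0.013). The median log2 fold change of all genes past the threshold was -0.40 among lower and 0.42 among higher genes.

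**Figure D1:**
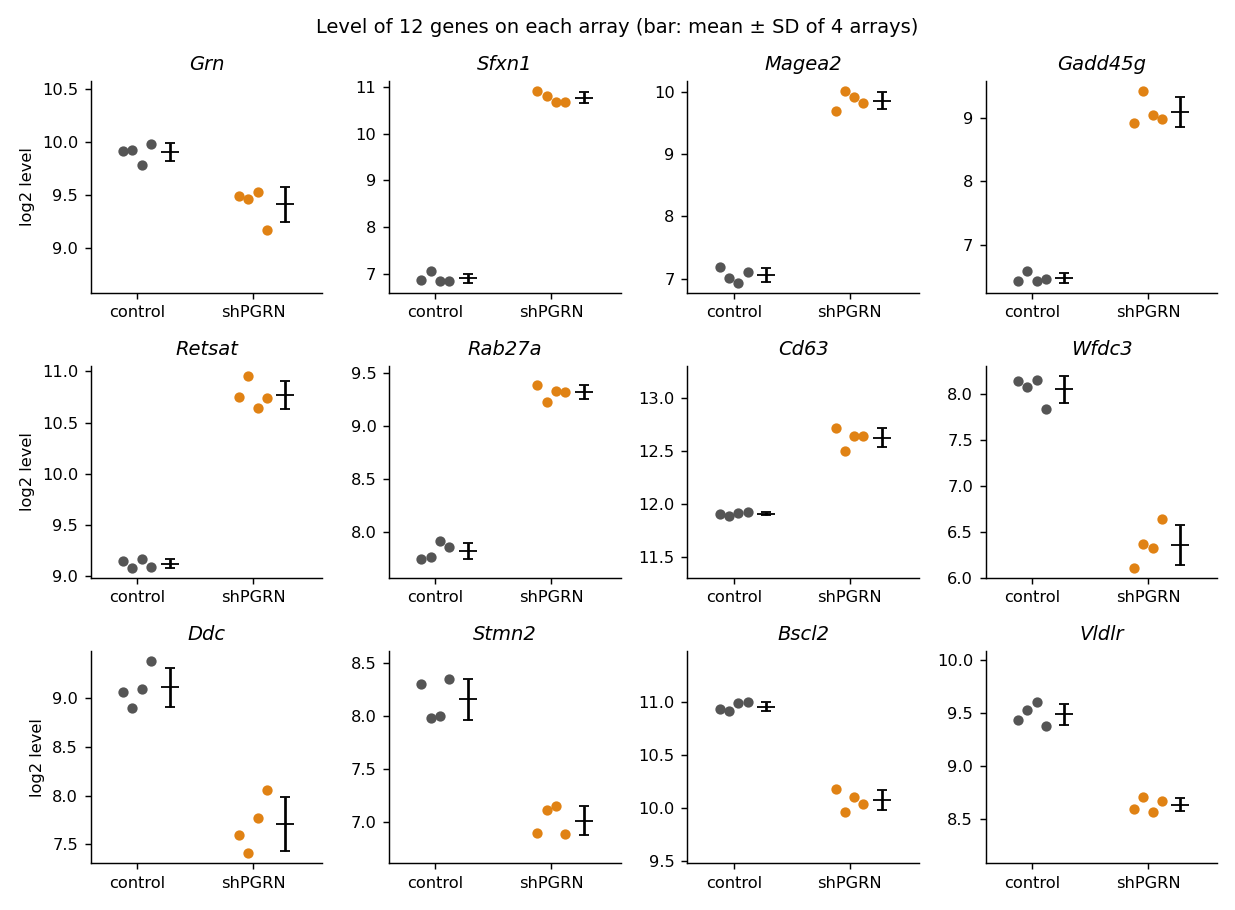
Normalized log2 level (y axis, scaled per gene) of 12 genes on the 4 control and 4 NSC-34/shPGRN arrays. Each point is 1 array and the bar is the mean ± SD of 4 arrays. No gene shown has overlapping groups, and the shift of Grn (-0.49) is smaller than that of the other 11 genes.

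Knockdown cells differed from control cells in both directions to a similar extent. Transcripts of 767 genes were lower (6.68% of those tested) and of 821 higher (7.15%), together 13.8% at a limma adjusted p under 0.05. The arrays of the lines did not overlap for 973 genes that were lower (8.48%) and 1065 that were higher (9.28%), whether or not they passed the test. Most changes were small. The log2 fold changes of all genes had a median of -0.00 with quartiles of -0.12 and 0.12, and of the genes past the threshold 118 lower and 160 higher ones changed by at least 1.5-fold. The arrays of a line were alike, with correlations of log2 levels of 0.990 to 0.995 among NSC-34/shPGRN, 0.988 to 0.993 among control and 0.979 to 0.988 between arrays of the 2 lines, and 19670 to 20103 probes were above background per array. The range of log2 fold changes ran from -1.69 to 3.87, so the tail of higher genes was longer.

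Bright genes passed the test more often than dim ones, in equal shares up and down. With the genes split by mean level into 4 groups of equal size, in the dimmest group 30 were lower and 29 higher (2.06%), in the next group 156 and 162 (11.1%), in the third 285 and 311 (20.8%) and in the brightest 296 and 319 (21.4%). Among genes above background on all 8 arrays 18.0% were called, and among the rest 3.15%. The correction applied before the test turns a deposited intensity of 0 into 72.2, which shrinks the fold changes of dim genes and of genes that are dim in 1 of the lines. Among the dimmest genes the largest fitted change was that of Klk1b9, a kallikrein of a near-identical family, at 94.3, 72.1, 87.5 and 72.7 on the NSC-34/shPGRN arrays and not above background with the same probe on any control array (at least 1.83-fold). That probe was above background on exactly the 4 arrays the filter asks for, so its test is no support, and with replicate 3 or replicate 4 of NSC-34/shPGRN cells left out the gene's other probe took its place, with a log2 fold change of 0.02 or 0.06. The largest falls were those of Sgpp2, a sphingosine phosphatase, at a log2 fold change of -0.51, and Slc18a3, the vesicular acetylcholine transporter of cholinergic neurons. Slc18a3 was at 31.6 ± 10.4 (SD, n = 4) on the control arrays and not above background on any NSC-34/shPGRN array, which bounds its fall at 1.23-fold or more (adjusted p = 0.000642 by limma). Prr19 went the opposite way, at 45.4, 43.0, 46.9 and 42.1 on the NSC-34/shPGRN arrays and not above background on any control array (at least 1.39-fold), and its probe too passed the filter only through the arrays on which it was high. A bound of this kind sets the bright line's normalized level against the background limit of the other line. Of all genes, 129 had probes above background in NSC-34/shPGRN cells and none in control cells (11 called), 133 the reverse (15 called), and no bound among them exceeded 1.39-fold.

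**Figure D2:**
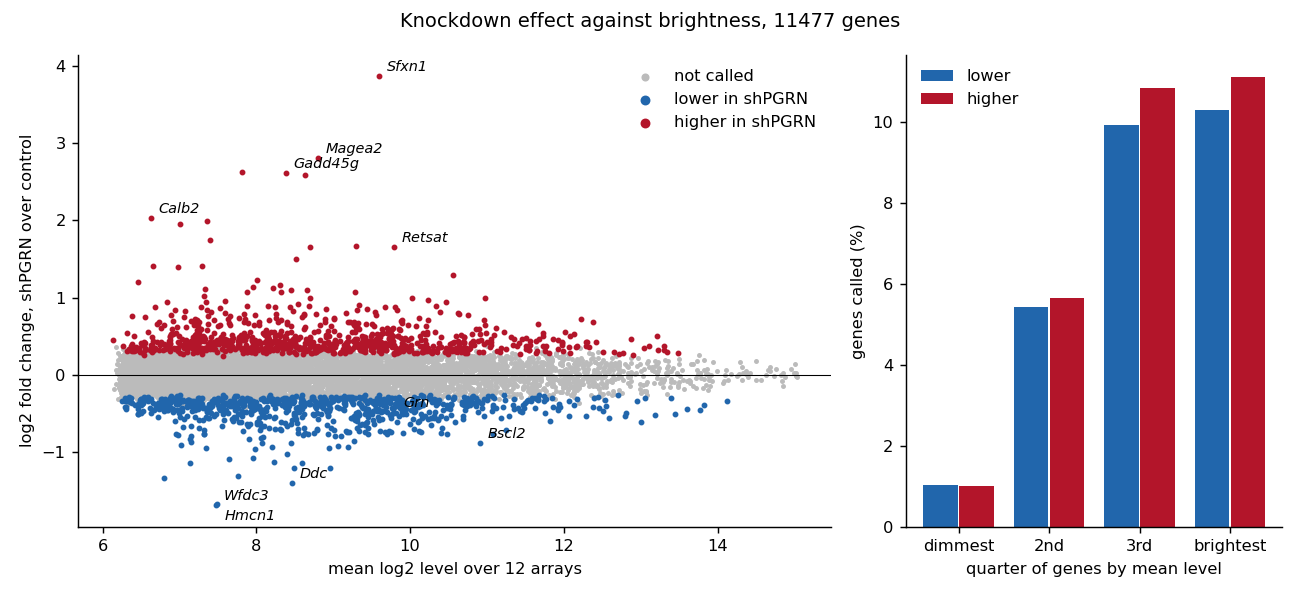
Left, log2 fold change of NSC-34/shPGRN over control cells (y axis) against mean log2 level over 12 arrays (x axis) for 11477 genes, with called genes in color. Right, percent of genes called lower or higher in each of 4 brightness groups, which for both directions together rises from 2.06% in the dimmest to 21.4% in the brightest group.

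The largest changes were increases, in genes that control cells hardly expressed. Sfxn1, the serine transporter of mitochondria, was at 1862, 1721, 1565 and 1553 on the NSC-34/shPGRN arrays and 44.2, 60.1, 43.0 and 41.9 on the control arrays. This fitted 14.6-fold difference (log2 fold change 3.87 by limma, SE 0.09, with adjusted p = 1.1e-18) was the largest of all genes tested. The correction before the test shrinks the fitted changes of this and the following genes that were dim in control cells. On the log2 of the deposited values the log2 fold change of Sfxn1 was 5.16 and that of Gadd45g 4.84. Gadd45g, a stress-induced gene of growth arrest, was at 409, 614, 451 and 431 against 16.8 ± 4.74 (SD, n = 4) in control cells (log2 fold change 2.61 by limma, SE 0.10, with adjusted p = 1.23e-14). The same control arrays serve any comparison with NSC-34/hPGRN cells, in which Sfxn1 was at 2182 ± 164 and Gadd45g at 712 ± 31.3 (SD, n = 4).

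Magea2, Magea5 and Magea8, X-linked antigens of germ cells and tumors, changed to an extent similar to Gadd45g. Magea2 was at 754, 969, 896 and 835 on the NSC-34/shPGRN arrays and 73.3, 56.4, 49.5 and 65.9 on the control arrays (log2 fold change 2.81 by limma, adjusted p = 6.5e-16). Magea5 and Magea8 had log2 fold changes of 2.63 and 2.59. In NSC-34/hPGRN cells Magea2 was at 653 ± 26.3 and Magea5 at 97.6 ± 4.39. The Magea genes are near-identical copies, as are Erdr1 and Vmn1r123 and their relatives, so which copy a probe reads is uncertain. Calb2, which encodes the calcium buffer calretinin, was at 170.1, 175, 241 and 160.5 on the NSC-34/shPGRN arrays, while no control array put its probe above background, which sets its rise at 3.06-fold or more, although another probe of the gene was above background there. The probe passed the filter only through the arrays on which it was high, as did those of 19 of the 821 higher and 15 of the 767 lower genes, so its test is no support for the difference. Prkdc, which encodes the kinase of DNA end joining, had intensities of 333, 266, 304 and 245 against 17.6 ± 8.57 (SD, n = 4) in control cells (log2 fold change 2.00 by limma, adjusted p = 5.78e-12).

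Among genes that both lines expressed clearly, Retsat, the retinol saturase, was at 1646, 1916, 1521 and 1635 on the NSC-34/shPGRN arrays and 495, 469.6, 502 and 471 on the control arrays (log2 fold change 1.65 by limma, SE 0.09, with adjusted p = 6.45e-12). Rab27a, a GTPase of secretory and lysosome-related organelles, was at 568 ± 29.2 against 154 ± 12.3 (SD, n = 4 arrays each; adjusted p = 4.07e-11 by limma). Sct, the precursor of the hormone secretin, was at 2044 ± 286 against 788 ± 51.8 (log2 fold change 1.29 by limma, adjusted p = 3.8e-09). The groups did not overlap in any of these genes.

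Decreases were smaller and fell on several neuronal genes. Wfdc3, a secreted protein with WAP domains, was at 209, 198, 211 and 155 on the control arrays and at -3.37, 10.2, 7.74 and 27.3 on the NSC-34/shPGRN arrays, of which 1 was above background (log2 fold change -1.69 by limma, SE 0.11, with adjusted p = 1.13e-10). Hmcn1, the extracellular matrix protein hemicentin, was at 175, 138, 114 and 114 on the control arrays and below the background limit on all 4 NSC-34/shPGRN arrays, at least 2.46-fold lower (adjusted p = 3.69e-11 by limma), although another probe of the gene was above background there. Stc1, the secreted hormone stanniocalcin, was at 136 ± 15.3 in control and 11.4 ± 14.6 in NSC-34/shPGRN cells (SD, n = 4 arrays each), and its probe passed the filter only through the control arrays. Stra6, the membrane receptor for retinol uptake, was at 309, 207, 278 and 228 against 63.3, 37.3, 67.5 and 72.7 (log2 fold change -1.31 by limma, adjusted p = 3.78e-08).

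Genes of transmitter handling were among the largest decreases. Ddc, the decarboxylase that makes dopamine and serotonin, was at 463, 404, 473 and 593 on the control arrays and 121, 97.8, 146 and 194 on the NSC-34/shPGRN arrays (log2 fold change -1.40 by limma, SE 0.12, with adjusted p = 3.42e-08). Slc32a1 (VGAT), which loads GABA and glycine into vesicles, was at 412 ± 39.7 against 138 ± 24.9 (SD, n = 4 arrays each; log2 fold change -1.21 by limma, adjusted p = 2.46e-08). Of 15 tested genes of transmitter synthesis and transport 4 were lower and 3 higher, 26.7% and 20% beside 6.68% and 7.15% of all genes, among the higher Tph2, the tryptophan hydroxylase of serotonin neurons, at a log2 fold change of 0.87. Chrna3, a nicotinic acetylcholine receptor subunit, was higher, at 288, 275, 299 and 275 against 77.2, 115, 88.7 and 86.7 (log2 fold change 1.12 by limma, adjusted p = 6.38e-09).

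Of 33 tested cytoskeletal and growth cone genes of neurons 13 were called lower and 1 higher, beside 6.68% and 7.15% of all genes, with a median log2 fold change of -0.27 beside -0.00. Stmn2, the microtubule regulator stathmin 2, was at 243, 180.4, 184 and 254 on the control arrays and 46.9, 66.1, 69.7 and 46.1 on the NSC-34/shPGRN arrays (log2 fold change -1.15 by limma, SE 0.11, with adjusted p = 1.22e-07). The tubulins Tubb2b (-0.61) and Tuba1a (-0.49), the collapsin response mediators Dpysl2 (-0.60) and Crmp1 (-0.35), the growth cone protein Gap43 (-0.72), Stmn3 (-0.64), the intermediate filament Ina (-0.51), Ank3 (-0.42), Cfl1 (-0.47) and Marcksl1 (-0.35) were also lower on the log2 scale. Dpysl3 was the member that was higher (0.32).

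Of 32 synaptic vesicle genes 5 were lower and 4 higher, 15.6% and 12.5% beside 6.68% and 7.15% of all genes, and with chromosomes 10, 12, 19 and X left out 5 of 25 were lower and 1 higher. Stx1a, the SNARE of the plasma membrane, was at 957, 945, 920.1 and 835 on the NSC-34/shPGRN arrays and 1311, 1433, 1304 and 1499.8 on the control arrays (log2 fold change -0.56 by limma, adjusted p = 8.93e-05), and Sh3gl2, the endocytic protein endophilin A, had a log2 fold change of -0.70. The vesicle calcium sensor Syt1 (0.45) and the granule proteins Chga (0.42) and Scg2 (0.35) were higher. Of 27 ion channel genes 5 were lower (18.5% beside 6.68% of all genes) and 1 higher, which was not called without control replicate 4 or replicate 1 of NSC-34/shPGRN cells. The regulators of the lineage were split too. Phox2a, a homeobox factor of autonomic neurons, was at 3337 ± 314 in NSC-34/shPGRN and 4835 ± 136 in control cells (log2 fold change -0.53 by limma, adjusted p = 0.000183), and Gata2 (-0.77) was lower, while Isl1 (0.51), the factor of motor neuron identity, and Gata3 (0.55) were higher.

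Of the labelled motor neuron-like identity, the acetylcholine transporter Slc18a3 was dim and Phox2a, Gata2 and Isl1 were expressed clearly. Of 16 neuron and neuroblastoma markers 12 were measured, of which 5 were lower and 4 higher (41.7% and 33.3% beside 6.68% and 7.15% of all genes). Markers of other cells were few: 3 of 7 for fibroblasts, of which Thy1, also a neuronal surface protein, was lower (log2 fold change -0.39), 2 of 6 for macrophages and 1 of 7 for astrocytes and oligodendrocytes, with none of these 3 called, and 0 of 6 for Schwann cells.

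Of 44 tested genes of the lysosome, the compartment in which PGRN acts, 12 were higher and 2 lower, 27.3% and 4.55% beside 7.15% and 6.68% of all genes, and the median log2 fold change was 0.08. Cd63, a tetraspanin of late endosomes and exosomes, was at 6679, 5742, 6334 and 6352 on the NSC-34/shPGRN arrays and 3775, 3719, 3797 and 3827 on the control arrays (log2 fold change 0.72 by limma, SE 0.10, with adjusted p = 1.39e-05). Fuca1, the lysosomal fucosidase, was at 99.8, 86.7, 90.2 and 118 against 34.7, 47.3, 11.2 and 42.1 (log2 fold change 0.70 by limma, adjusted p = 0.000182). The other 10 rose by 0.31 to 0.46 on the log2 scale. They were the membrane proteins Lamp1 (0.44) and Lamp2 (0.31), the protease Ctsb (0.39), the cholesterol exporter Npc1 (0.40), the hydrolases Hexa (0.32) and Gaa (0.33), the sphingolipid activators Psap (0.34) and Gm2a (0.41), and Tpp1 (0.46) and Cln3 (0.42), which like Grn are genes of neuronal ceroid lipofuscinosis. The proton pump subunit Atp6v0d1 (-0.37) and the protease Ctss (-0.30), whose probe was above background on the control arrays only, were lower. The count of higher genes ranged from 8 to 12 over the alternative settings other than those that ask for a minimum fold change. Of 35 autophagy genes 2 were higher and 1 lower, 5.71% and 2.86% beside 7.15% and 6.68% of all genes. Without control replicate 4 none was higher and 2 were lower.

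Of 18 tested genes of sterol synthesis and uptake 8 were lower, none was higher and 10 did not pass the test (44.4% lower beside 6.68% of all genes), and the median log2 fold change was -0.30. Vldlr, a receptor for lipoproteins and reelin, was at 314, 345, 307 and 336 on the NSC-34/shPGRN arrays and 621, 667, 704 and 594 on the control arrays (log2 fold change -0.85 by limma, SE 0.09, with adjusted p = 6.5e-07). Msmo1, the sterol C4 methyl oxidase, was at 123, 51.6, 92.3 and 69.9 against 194, 152, 187 and 199.6 (log2 fold change -0.72 by limma, adjusted p = 0.000185). The synthesis enzymes Nsdhl (-0.58), Hsd17b7 (-0.44), Lss (-0.38), Ebp (-0.36), Dhcr7 (-0.35) and Fdps (-0.30) were also lower on the log2 scale. Without replicate 3 of NSC-34/shPGRN cells 5 were called. Bscl2, which encodes seipin of the lipid droplet, was at 1089, 925, 1028 and 980.1 against 1882, 1858, 1958 and 1970.5 (log2 fold change -0.89 by limma, adjusted p = 1.06e-07), the largest fall in the brightest of the 4 brightness groups.

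Of 35 extracellular matrix genes 9 were higher and 1 lower (Hmcn1), 25.7% and 2.86% beside 7.15% and 6.68% of all genes, with a median log2 fold change of 0.16. Sparc, a secreted collagen-binding protein, was at 544, 518, 597 and 575 on the NSC-34/shPGRN arrays and 204, 196, 259 and 186 on the control arrays (log2 fold change 1.16 by limma, SE 0.10, with adjusted p = 1.17e-08). The laminins Lamb2 (0.95), Lama5 (0.60) and Lamc1 (0.47), the basement membrane proteins Agrn (0.47) and Fbln2 (0.40) and the collagen-modifying hydroxylases Plod2 (0.55), P4ha1 (0.40) and Plod3 (0.34) were higher on the log2 scale. Of 35 semaphorin and axon guidance genes 8 were higher and none lower, 22.9% higher beside 7.15% of all genes. Nrp1, the receptor of class 3 semaphorins and a coreceptor of VEGF, was at 424, 408, 529 and 437 against 169.7, 183, 167 and 185 (log2 fold change 1.07 by limma, SE 0.09, with adjusted p = 3.24e-08), and the ligand Efna5 at 2444 ± 159 against 1531 ± 130.4 (SD, n = 4 arrays each; log2 fold change 0.65 by limma, adjusted p = 6.93e-05). Without replicate 1 of control cells 5 guidance genes were called.

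**Figure D3:**
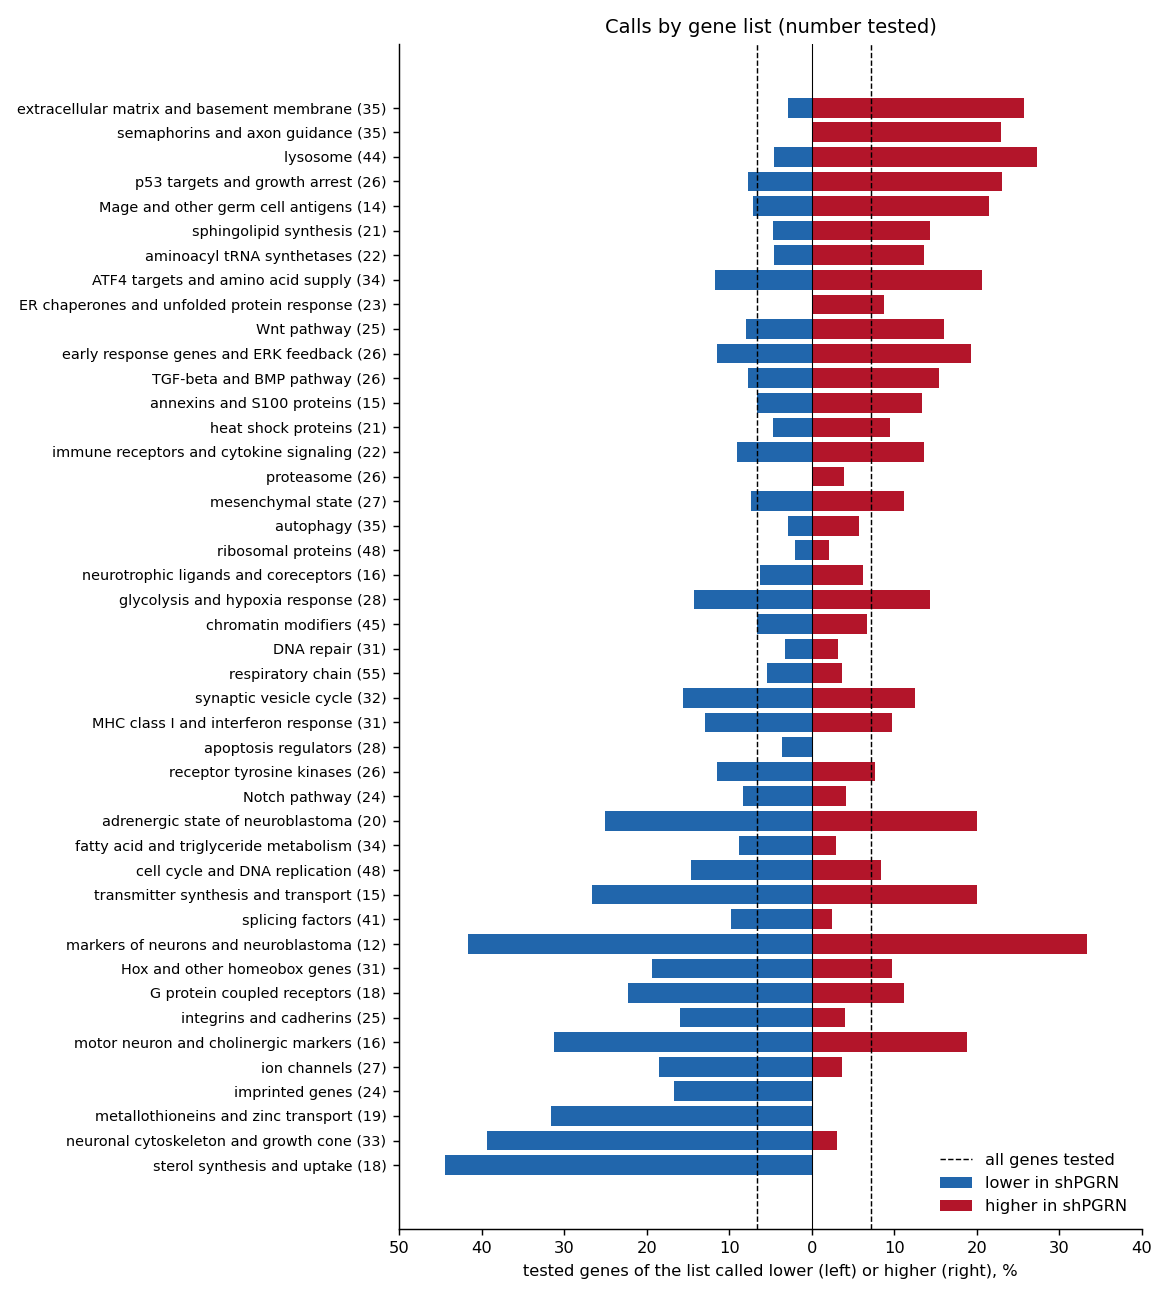
Percent of the tested genes of each list called lower (left, blue) or higher (right, red) in NSC-34/shPGRN cells, for lists with 10 or more tested genes (number in brackets). Dashed lines are the 6.68% and 7.15% of all genes tested, which sterol and cytoskeleton genes exceed on the left and lysosome, matrix and guidance genes on the right.

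Several groups were called less often than the 13.8% of all genes. The share called rises with brightness, and the lists were not matched to all genes for it. Median control intensities were 14594 for ribosomal protein, 692 for sterol, 361 for cytoskeletal and 59.2 for matrix genes, beside 118 for all genes. Of 48 ribosomal protein genes 1 was lower and 1 higher (4.17% called). Of 55 respiratory chain genes 3 were lower and 2 higher (9.09%), and the lower count was 2 to 8 over the alternative settings other than those that ask for a minimum fold change. Of 26 proteasome genes 0 were lower and 1 higher (3.85%). Of 31 DNA repair genes 1 was lower and 1 higher (6.45%), and of 28 apoptosis regulators 1 and 0 (3.57%). The higher DNA repair gene was Prkdc. A further list joined targets of ATF4, the transcription factor of the amino acid response, with other genes of amino acid supply. Of its 34 tested genes 7 were higher and 4 lower, 20.6% and 11.8% beside 7.15% and 6.68% of all genes. Which of them respond to ATF4 in these cells was not tested. With chromosomes 10, 12, 19 and X left out 5 of 24 were higher and 1 lower. Sfxn1 is one of the higher ones, and among the others were Ddit3 (0.89), Asl (0.63) and Sesn2 (0.42) on the log2 scale, and among the lower Slc7a3 (-0.38) and Shmt1 (-0.33).

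The neuronal RNA-binding proteins Elavl2, Elavl3 and Elavl4, which steer splicing and stability of neuronal transcripts, were lower (log2 fold changes -0.49, -0.62 and -0.40). Of all 41 splicing factors tested 4 were lower and 1 higher, 9.76% and 2.44% beside 6.68% and 7.15% of all genes. The higher one, Elavl1, was not called without control replicate 2 or 3 or replicate 1 of NSC-34/shPGRN cells. Of 48 genes of the cell cycle and DNA replication 7 were lower and 4 higher, 14.6% and 8.33% beside 6.68% and 7.15% of all genes, with the cyclin Ccnd1 lower and the kinase Cdk2 higher. The lower count was 3 without replicate 2 of NSC-34/shPGRN cells and 4 without its replicate 1 or 3 or control replicate 3, and without the latter the higher count was 2. Of 31 homeobox genes 6 were lower and 3 higher, 19.4% and 9.68% beside 6.68% and 7.15% of all genes, and the higher count was 1 without control replicate 3 or 4 or replicate 1 of NSC-34/shPGRN cells. Of 31 genes of antigen presentation and the interferon response 4 were lower (12.9% beside 6.68% of all genes), among them H2-D1 and the immunoproteasome subunits Psmb8 and Psmb10, and 3 were higher (9.68% beside 7.15%), the membrane proteins Ifitm1, Ifitm2 and Ifitm3.

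Of 19 tested zinc handling genes 6 were lower and none higher, 31.6% lower beside 6.68% of all genes, at a median log2 fold change of -0.03. Mt1, a zinc-binding metallothionein, was at 9179.9, 9482, 10183 and 9450.4 on the NSC-34/shPGRN arrays and 13069, 12284, 13474 and 13200.2 on the control arrays (log2 fold change -0.44 by limma, SE 0.08, with adjusted p = 0.000873). Slc30a1, the zinc exporter of the plasma membrane, was at 81.4 ± 9.67 against 136 ± 37.6 (SD, n = 4 arrays each; log2 fold change -0.43 by limma, adjusted p = 0.00889). Mt2 (-0.42), Mt3 (-0.52), Slc30a3 (-0.40) and Slc30a7 (-0.31) were also lower, and without replicate 1 of NSC-34/shPGRN cells 3 of the 6 were called. In response to zinc, the transcription factor MTF1 binds metal response elements with the core TGCACNC or TGCGCNC. These cores, on either strand, occurred in 25.7% of all 32851 RefSeq promoter windows of the same length, at least 2 times in 7.11% and at least 3 times in 1.97%. A window holding a core was found for 5 of the 6 lower genes and 4 of the 10 genes that were not called and had a window. The sterol response element core TCACNCCAC, scanned the same way, occurred in 1.24% of all windows and in none of 7 lower and 8 uncalled sterol genes. The windows below, from GRCm38, run from 250 bases before to 50 bases after a start site given by RefSeq and are shown because the lower Mt1, Mt2 and Slc30a1 hold 3, 4 and 2 matches, in capitals. A match is a description of the letters and no evidence of binding.
Mt1 (chr8:94178839-94179138, plus strand): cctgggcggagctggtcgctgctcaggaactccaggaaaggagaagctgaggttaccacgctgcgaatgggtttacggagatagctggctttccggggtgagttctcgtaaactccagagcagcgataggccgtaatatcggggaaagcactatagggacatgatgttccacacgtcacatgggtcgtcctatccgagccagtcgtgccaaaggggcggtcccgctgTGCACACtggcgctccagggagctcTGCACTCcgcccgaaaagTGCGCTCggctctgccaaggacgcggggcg
Mt2 (chr8:94172368-94172667, plus strand): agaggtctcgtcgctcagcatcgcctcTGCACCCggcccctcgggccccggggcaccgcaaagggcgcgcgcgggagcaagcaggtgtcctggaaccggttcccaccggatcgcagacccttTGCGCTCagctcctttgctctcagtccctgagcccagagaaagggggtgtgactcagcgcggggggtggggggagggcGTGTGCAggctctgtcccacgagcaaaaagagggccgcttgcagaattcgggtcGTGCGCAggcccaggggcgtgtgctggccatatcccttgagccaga
Slc30a1 (chr1:191906531-191906830, plus strand): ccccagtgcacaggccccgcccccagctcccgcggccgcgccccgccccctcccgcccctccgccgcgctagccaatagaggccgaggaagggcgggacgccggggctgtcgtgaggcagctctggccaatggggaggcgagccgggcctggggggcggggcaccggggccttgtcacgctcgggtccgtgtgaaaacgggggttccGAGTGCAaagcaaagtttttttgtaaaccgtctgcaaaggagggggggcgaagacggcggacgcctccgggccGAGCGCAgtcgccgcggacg

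Position on the chromosomes, which the comparison did not use, separated the directions. Chromosome 10 held 5.04% of the tested genes and 14.7% of the higher calls: of its 579 genes 121 were higher and 9 lower, and its median log2 fold change was 0.11. Chromosome 12 was alike, with 49 of 365 higher, 6 lower and a median of 0.07. In the opposite direction, 71 of 420 genes on chromosome 19 were lower and 14 higher (median -0.10), 59 of 363 on chromosome X were lower and 12 higher (median -0.08), and 71 of 571 on chromosome 6 were lower and 14 higher (median -0.05). On chromosomes 7, 9, 14, 16 and 3 the median lay within 0.01 of 0.

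The shift was in every array. Expressed as the median deviation of a chromosome's genes from their 8-array means, chromosome 10 was at 0.06, 0.08, 0.05 and 0.06 on the NSC-34/shPGRN arrays and at -0.07, -0.05, -0.05 and -0.07 on the control arrays. Chromosome 19 was at -0.07, -0.05, -0.04 and -0.04 against 0.05, 0.05, 0.06 and 0.06. The groups did not overlap for either, and this held for 13 of 20 chromosomes, some with medians as small as 0.01 (chromosome 15), so that a lack of overlap does not by itself set a chromosome apart. In the brighter of 2 equal parts of the genes the medians were larger, 0.21 on chromosome 10, 0.12 on chromosome 12, -0.16 on chromosome 19 and -0.15 on chromosome X. A gene's next brightest kept probe, where it had one, gave chromosome medians of 0.10, 0.05, -0.08 and -0.13. Over the same control arrays, the medians of NSC-34/hPGRN minus control cells were 0.09 on chromosome 10, -0.04 on chromosome 12, 0.01 on chromosome 19, -0.03 on chromosome X and 0.12 on chromosome 17, where NSC-34/shPGRN cells were at 0.01.

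**Figure D4:**
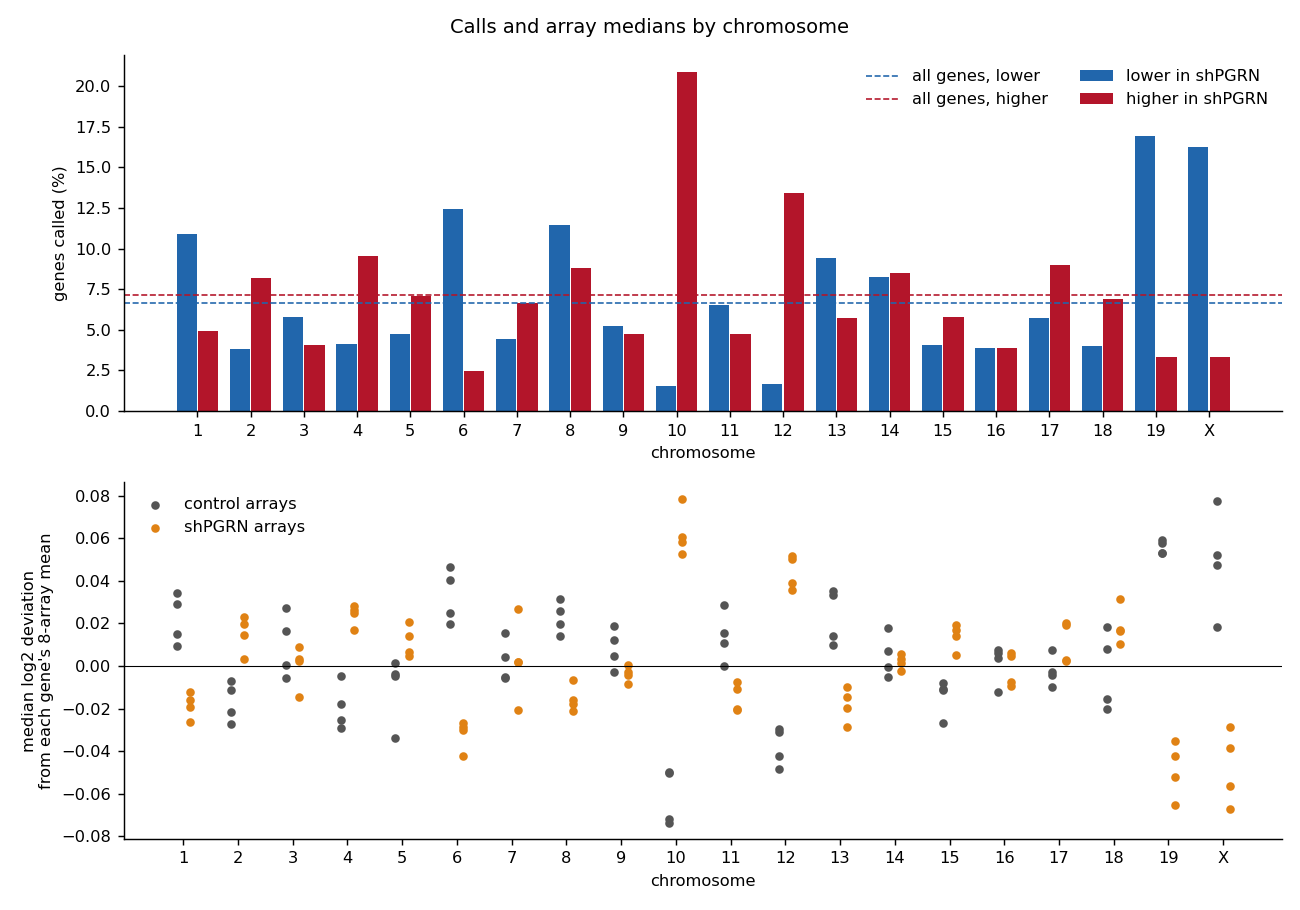
Top, percent of the tested genes of each chromosome called lower or higher, with dashed lines at the shares of all genes (6.68% and 7.15%). Bottom, median log2 deviation of each chromosome's genes from their 8-array means, 1 point per array, in which chromosome 10 lies at 0.05 to 0.08 on the NSC-34/shPGRN arrays and at -0.07 to -0.05 on the control arrays.

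Within a chromosome the shift was described by windows of neighbouring genes. Adjacent windows share most of their genes, so a running median changes slowly in any gene order. Running medians over 20 neighbouring tested genes reached 0.37 on chromosome 10 between Plekhj1 and Apba3, where 10 genes were higher and none lower, among them Eef2, the elongation factor of translation, the nuclear lamin Lmnb2 and the SUMO ligase Pias4. On chromosome X the run from Nxf7 to Fam199x had a median of -0.31, with 12 genes lower and 1 higher. It holds members of the brain-expressed Bex and Tceal families (Bex2, Bex4, Tceal1, Tceal8 and Tceal9, all lower, and Tceal5, the gene that was higher) and their lower neighbours Gprasp1, Armcx5 and Morf4l2. Members of these families resemble each other in sequence, so which copy a probe reads is uncertain. Chromosome 8 changed sign along its length. From Mvb12a to Med26, which includes the vesicle GTPase Rab8a and the tropomyosin Tpm4, 10 genes were lower and none higher (median -0.32), whereas from Ddx19b to Kars 10 were higher and 1 lower (median 0.30). The latter run holds Aars, the alanyl-tRNA synthetase (6694 ± 699 in NSC-34/shPGRN against 4123 ± 128 in control cells), and Kars, the lysyl-tRNA synthetase (2392 ± 188 against 1561 ± 152). Of all 22 tested genes of aminoacyl-tRNA synthetases and their partners 3 were higher and 1 lower, 13.6% and 4.55% beside 7.15% and 6.68% of all genes. On chromosome 1, 10 genes between Optc and Tmem9 were lower and 1 higher (median -0.30), and on chromosome 17, 10 between Plcl2 and Dpp9 were higher and 1 lower (median 0.33). These runs were picked as the lowest or highest of their chromosome. They were not tested and not compared with a shuffled gene order.

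**Figure D5:**
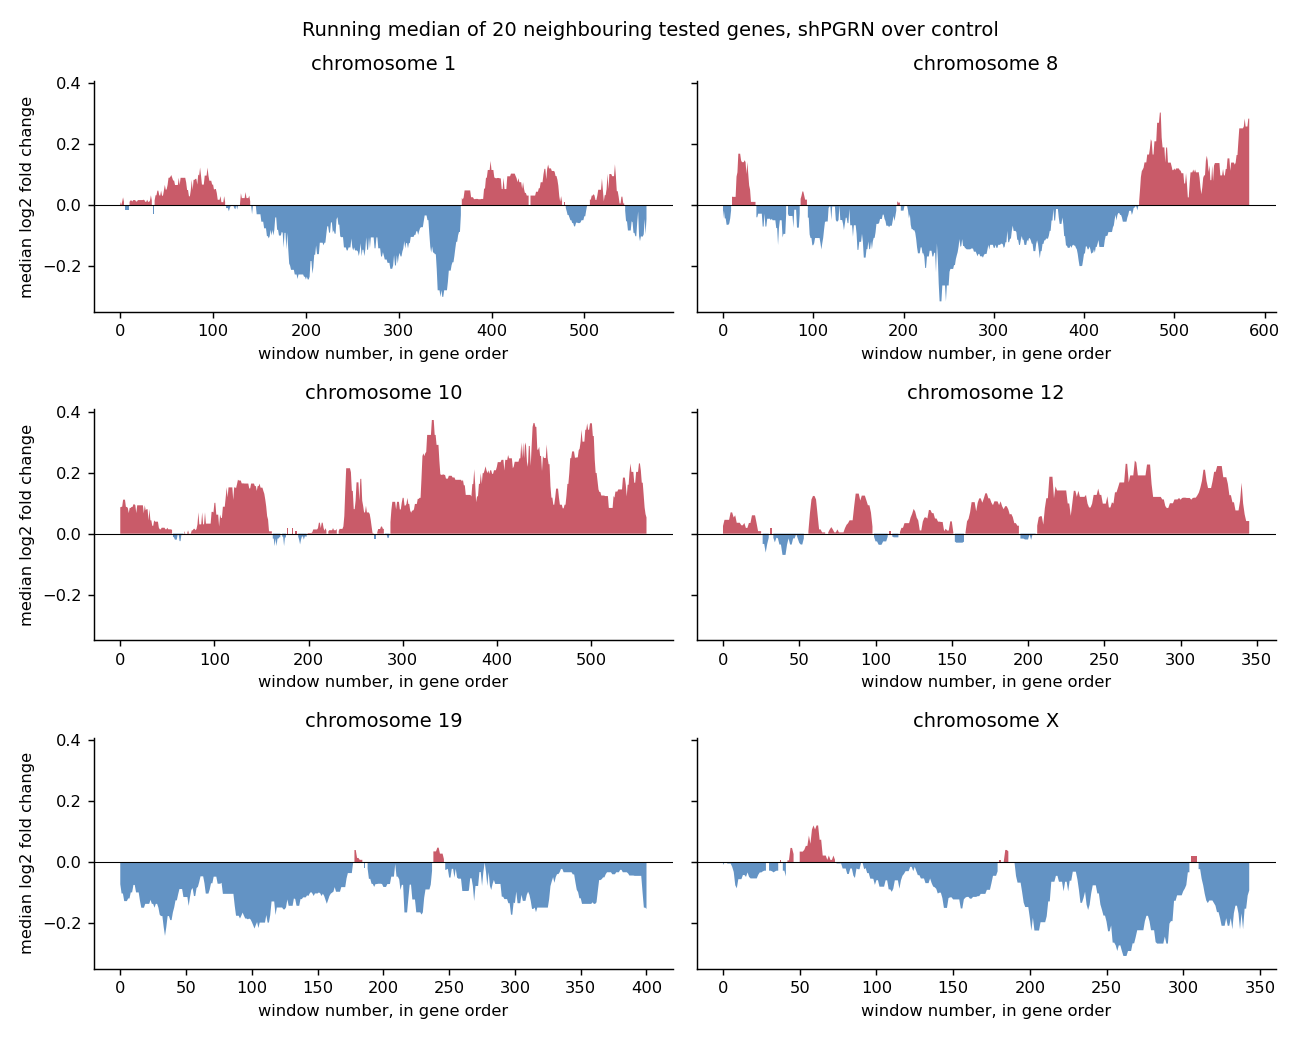
Running median log2 fold change (y axis) over 20 neighbouring tested genes, in gene order along 6 chromosomes (x axis, window number). Windows above 0 are red and below 0 blue, with medians that reach 0.37 on chromosome 10, -0.31 on chromosome X and from -0.32 to 0.30 on chromosome 8. Adjacent windows share most of their genes.

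The neighbours of genes named above are given beside the 6.68% of all genes that were lower and the 7.15% that were higher. Of the 20 tested genes around Vldlr on chromosome 19, 6 were lower and none higher, and of the 20 around Bscl2 4 were lower and none higher. Among 12 neighbours of Nrp1 on chromosome 8, 6 were higher and none lower, with a median of 0.29. Around Cd63 on chromosome 10, 5 of 20 were higher and none lower, with a median of 0.06. Around Mt1 on chromosome 8, where Mt2 and Mt3 also lie, 3 of 20 were lower and none higher, on a chromosome of which 11.4% of genes were lower. Around Sfxn1 and around Gadd45g on chromosome 13, 2 of 20 were higher and none lower, with medians of 0.09 and 0.08. Around Grn on chromosome 11, 2 of 20 were lower and none higher. Around Retsat on chromosome 6, which was itself higher, 3 of 20 were lower and none higher. With chromosomes 10, 12, 19 and X left out, 9 of 36 lysosome genes were higher and 2 lower, 10 of 26 cytoskeleton genes lower and 1 higher, 4 of 13 sterol genes lower and none higher, and 8 of 25 matrix genes higher and 1 lower, beside 625 higher and 622 lower of 9750 genes in all. Over the alternative settings other than those that ask for a minimum fold change, 102 to 132 genes were higher on chromosome 10 and 48 to 79 lower on chromosome 19. What part position has in the change of any 1 gene was not tested.

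Where a gene had more than 1 kept probe, the next brightest one moved the same way for 333 of 365 lower and 325 of 382 higher genes, and was itself past the threshold in the same direction for 128 and 122. Its median log2 fold change was -0.24 and 0.22, against -0.40 and 0.41 for the brightest probe of the same genes. Probes of 1 gene disagreed past the threshold in 1 case, Ska2, a subunit of the kinetochore complex, whose brightest probe was lower (-0.46) while the other was higher (0.47, limma adjusted p = 0.00225, at intensities of 33.6 and 4.29).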

How the data were processed

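RNA of 12 flasks (4 per line) was hybridized to Illumina MouseWG-6 v2 BeadChips. The intensity values deposited by the authors were linear and had the same distribution on every array (31.7% to 31.8% below 0), from which background subtraction and normalization before deposit were inferred. The methods name the lumi and FlexArray software for normalization and testing. The non-normalized table, whose 24 columns match no sample label, was not used.

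Intensities were corrected by normexp (offset 50), quantile-normalized and put on a log2 scale. Probes above a background limit (11.3 to 12.3) on at least 4 of 12 arrays were kept, 21150 of 45281, and the brightest kept probe stood for a gene. Of the probes, 34885 had 1 symbol, 18 several and 10378 none. limma 3.58.1 in R 4.3.3 was fitted to 12 arrays, and p-values were adjusted by Benjamini-Hochberg over 11477 genes (threshold 0.05). NSC-34/hPGRN arrays entered the normalization, filter, probe choice, brightness groups and shared spread, but not the contrast. With only the 8 arrays of the contrast used throughout, 670 genes were lower and 754 higher. The fit was tested on simulated data. The number of arrays limits the precision.

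Named genes were Grn, the 15 largest changes per direction without overlap, the 4 largest per direction in each of the 4 brightness groups, the top 2 called members of each list, the 5 brightest genes per direction detected in 1 line only, and genes whose kept probes disagreed. Other genes were named as called members of a list or of a chromosome run after their values were seen. Gene lists and comparisons were chosen with earlier results of these data known, and runs of neighbouring genes were ordered by RefSeq positions. Alternatives were the background correction, filter, probe choice, spread model, arrays used and leaving out each array. Results for an item withheld for evaluation are not reported here.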

Additional observations from a re-analysis of the deposited data

Results flagged for a closer look

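Among 117 named genes, 14 of 234 groups of 4 arrays held 1 array far from the other 3, and chance alone gives about 1 in 20. For Grn the NSC-34/shPGRN array of replicate 4 was at 502 against 635 to 665 on the others. Mest, an imprinted gene, had such an array in both lines, replicate 4 of NSC-34/shPGRN cells at 1630.2 (others 1914.9 to 1964) and replicate 1 of control cells at 4104 (others 2754 to 2845). Atg7, an autophagy enzyme, likewise had replicate 1 of NSC-34/shPGRN cells at 19.2 and replicate 2 of control cells at 46.0.

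In control replicate 2, Cdk2 was at 2076, Egln3 at 156, Gadd45g at 23.8 and Sfxn1 at 60.1, each above the other control arrays. In control replicate 4, Gata2 was at 1171 and Sel1l at 93.3, below the others, and Prr19 was at 9.07 and Vmn1r123 at 17.6, above them. In control replicate 1, Cd14 was at -3.60 against 9.27 to 10.2. For this rule values below 0 were set to 0, which affects Prr19, Vmn1r123 and Cd14. The other control values of Prr19 all lay below 0, so any value above 0 would have been flagged. Neither Prr19 nor Cd14 was above background on any control array, so these flags describe values within the background.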

How the results depend on the processing

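Counts of lower and higher genes stayed within 1.5 times the reported ones under 19 alternatives, and no gene was called in the opposite direction under any of them. Leaving out 1 array gave 585 to 707 lower and 681 to 776 higher genes. Replicate numbers did not pair the arrays (same-number correlations between the lines of -0.05 to 0.13, others -0.16 to 0.13), and the fit with a replicate block called 695 lower and 769 higher. A limma test against a change of 1.2-fold called 100 lower and 140 higher, and a minimum of 1.5-fold left 118 and 160. Grn, at -0.49, was not called by the former (adjusted p = 0.493).

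Of 117 named genes 52 stayed on their side of the threshold under every setting. Klk1b9 was at -0.19 on the log2 of the deposited values (limma, adjusted p = 0.992), where the gene's other probe was the brighter one and took the place of the reported probe. Without replicate 1 or replicate 2 of NSC-34/shPGRN cells no probe of Klk1b9 passed the filter. On that scale 23 named genes lost their calls, among them Stmn2, Stc1, Wfdc3, Fuca1, Calb2, Prr19, Slc18a3 and Sgpp2. Their fold changes kept their direction and were larger there, as for Stmn2 (-1.92, limma adjusted p = 0.782) and Fuca1 (1.72, limma adjusted p = 0.0623). For Calb2 the value there (6.66, limma adjusted p = 0.358) came from the gene's other probe, which took the place of the reported one, as for Klk1b9. In all, 570 genes were lower and 617 higher. Dim genes are limited by signal over background. Stmn2 was not dim in this sense in the lines compared, with its probe above background on all 4 arrays of each. In NSC-34/hPGRN cells, whose arrays enter the shared spread, Stmn2 was at 3.42 ± 9.04 (SD, n = 4), above background on 1 array. Whether those arrays account for its lost call on the log2 of the deposited values was not tested.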
